A study of Mus musculus with 48 samples.

Results

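Bone marrow-derived macrophages that lack both isoforms of the kinase Lyn (LynKO) were compared with wild-type (WT) macrophages that, like them, had received no ligand (NT), across every gene expressed above a minimum count. The comparison uses 8 of the 48 RNA-seq libraries of the series, 4 of LynKO and 4 of WT. Of the 49315 genes in the deposited count table, 13986 passed the filter on low counts. The filter was applied over all 48 libraries, those with a ligand included, so a gene can be tested though it is low without ligand. Each group holds cells of 4 mice, 2 labelled male and 2 labelled female. The LynKO group carries a total knockout of Lyn and the WT group carries both isoforms; the sources used here do not say how the alleles were made, nor the strain and the age of the mice. In both groups marrow cells were grown for 7 days with M-CSF, the growth factor that drives macrophage formation, supplied as conditioned medium of the CMG14-12 line. The cells then rested overnight without M-CSF and spent 2 h in fresh M-CSF-free medium before lysis, so the resting state described is one of growth factor withdrawal. Knockouts of a single isoform, LynAKO and LynBKO, with 4 NT libraries each, entered the same model and are used to show where LynKO also differs from them. LPS and resiquimod (R848) libraries of LynKO and WT are used only to ask whether the difference without ligand has another size after 2 h with 2 ng/mL LPS or 20 ng/mL R848.

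Lyn, one of the Src-family tyrosine kinases, is anchored at the inner face of the plasma membrane and is made as the splice isoforms LynA and LynB. In myeloid cells it phosphorylates ITAM motifs, the tyrosine signals of activating receptors, and ITIM motifs of inhibitory receptors, which recruit phosphatases such as SHP-1 and SHIP-1. It is therefore known both as a starter and as a brake of signalling below Fc receptors, integrins and growth factor receptors.

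Lyn itself (ENSMUSG00000042228, chromosome 4, 3678115 to 3813122, plus strand, GRCm38) had 64.02, 72.8, 69.2 and 64.5 CPM in LynKO libraries, against 191, 178, 172 and 167 CPM in WT libraries. The LynKO libraries did not overlap the WT libraries, with a log2 fold change -1.38 ± 0.07, adjusted p = 2.76e-10 (edgeR's quasi-likelihood test, Benjamini-Hochberg over all genes tested). Where a gene is said to rise or fall by a value, that is on the log2 scale, values after ± beside it are SE, and CPM are TMM-scaled counts per library, on the usual CPM scale. The counts are per gene, so a transcript that remains in LynKO cannot be told apart from a full-length one.

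At an adjusted p under 0.05, 1385 genes (9.9%) differed between LynKO and WT, 760 higher in LynKO (5.43%) and 625 lower (4.47%). Genes that were higher had a median change of 0.638 on the log2 scale and 217 of them were past 1, while genes that were lower had a median absolute change of 0.392 and 65 were past 1. The LynKO and WT libraries did not overlap for 673 of the 760 and 580 of the 625, and over all genes tested they did not overlap for 16.3%, with 7.37% higher and 8.9% lower in LynKO. All 1385 had the same sign in the male libraries alone and in the female libraries alone. The same libraries gave the calls, so this is a description and not a separate test. The LynKO libraries were shallower than the WT libraries, with 16345760 to 17008593 counts against 18656266 to 22783998. Mitochondrial transcripts took 1.71 to 1.87% of counts in LynKO and 1.48 to 1.69% in WT, and the 50 most abundant genes took 20.5 to 21.1% in LynKO and 22.3 to 23.98% in WT. These 3 were among 6 of 19 such measures at 0.0286, the smallest p that 4 against 4 libraries allow (exact permutation test, two-sided), and their adjusted p = 0.0905. A p under 0.05 after adjustment would take 11 measures at that smallest p. The library labelled LynKO NT 4, whose label is female, held both Y-linked transcripts (70.8 CPM) and Xist (232 CPM), and the library labelled LynBKO NT 4 did too (133 and 121 CPM). Without these libraries, called the mixed libraries from here on, 967 genes were called, 546 higher and 421 lower. Without WT 1, which had a count in 15528 genes against 17537 to 20152 in the other 7 libraries, 962 were called, 560 higher and 402 lower.

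The labelled cell type was checked against defining markers. Csf1r, the M-CSF receptor, ranged over 3173 to 3739 CPM in LynKO and 3952 to 4282 CPM in WT, and Adgre1, which encodes F4/80, over 1409.6 to 1629.8 CPM in LynKO and 1204 to 1484 CPM in WT. Of 20 neutrophil and granulocyte progenitor markers, 18 stayed under 5 CPM in all 8 libraries, as did 13 of 13 B cell, 16 of 17 T and NK cell and 17 of 19 stromal markers. Other lists had more members above that level, with 6 of 13 monocyte, 6 of 14 osteoclast, 8 of 12 endothelial, 8 of 12 megakaryocyte and 11 of 16 blood stem cell markers under 5 CPM. Of these Flt1 (endothelial), Tnfrsf11a (osteoclast) and Nr4a1 (monocyte) were called higher in LynKO, and Clcn7 (osteoclast), Ly6c2 and Hp (both monocyte) lower. The summed neutrophil list was 85.5 to 95.9 CPM in LynKO and 131 to 162 CPM in WT, carried by Csf3r and Mmp8, while the summed T and NK cell list was 186 to 207 CPM in LynKO and 130 to 176 CPM in WT, carried by Il7r. The summed stromal list was 29.8 to 38.7 CPM in LynKO and 19.6 to 27.7 CPM in WT, carried by Kitl and Runx2. In bulk RNA, fewer cells of a kind and less RNA per cell cannot be told apart.

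**Figure D1:**
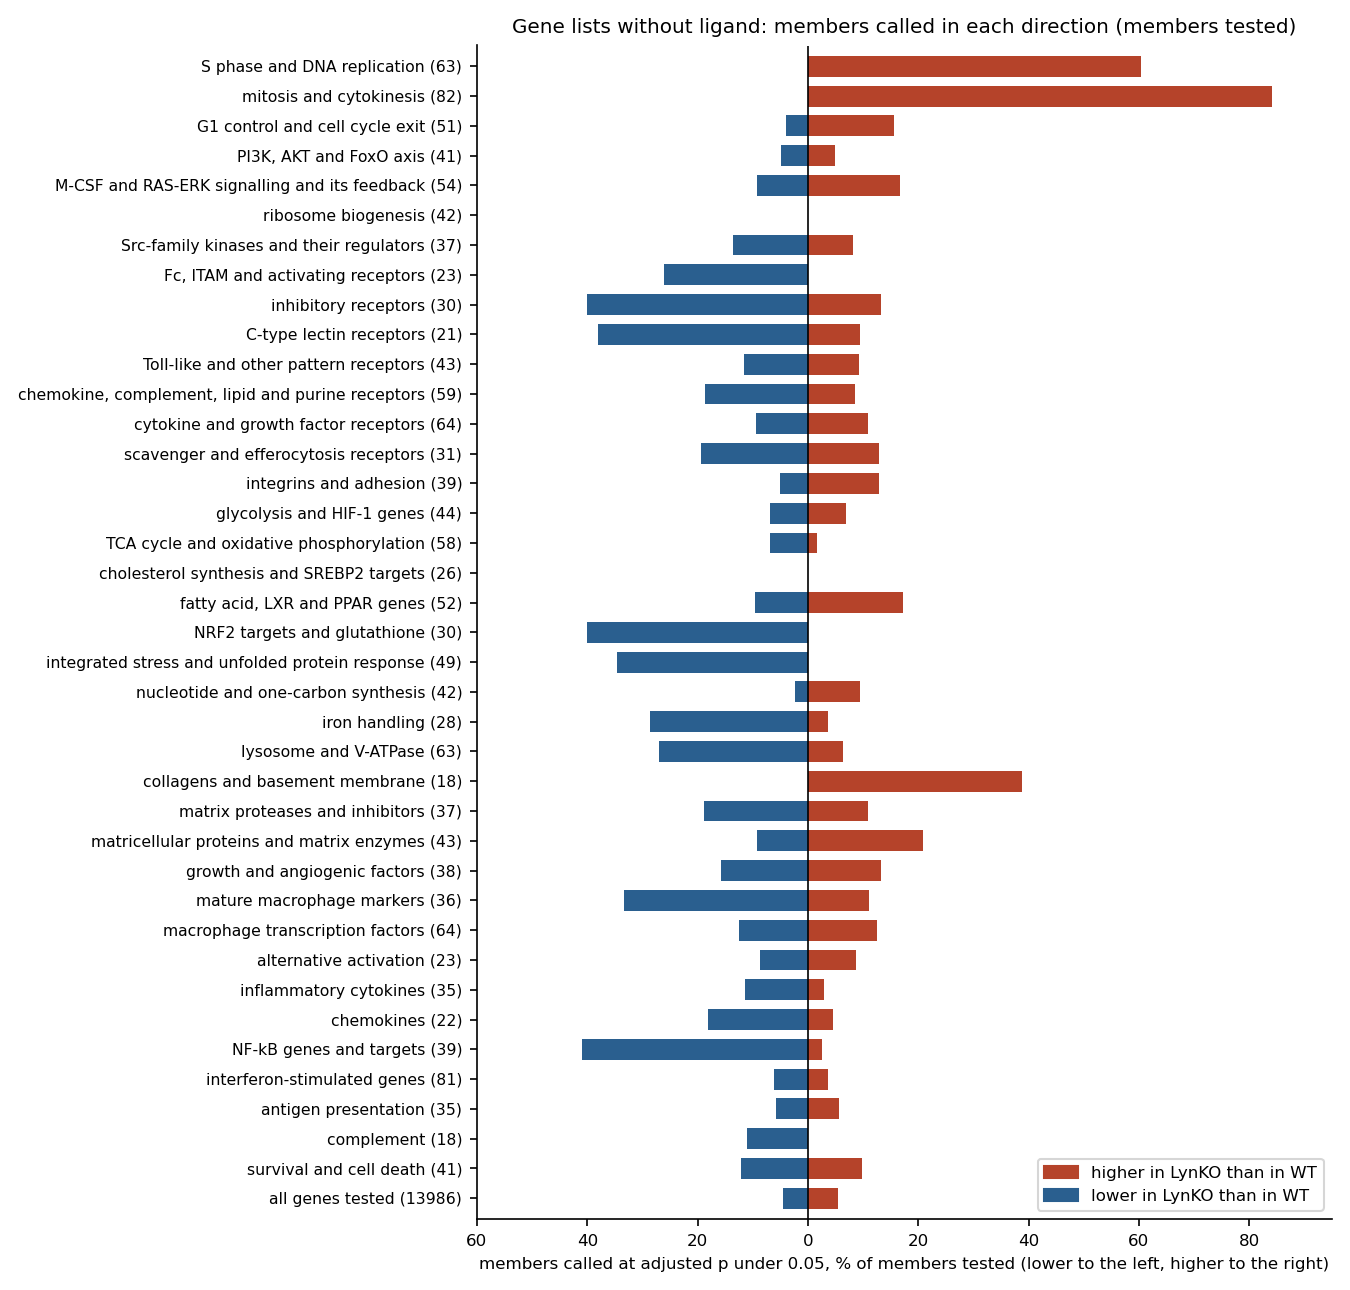
For each gene list, the share of tested members called at an adjusted p under 0.05 is drawn to the right where higher in LynKO than in WT and to the left where lower; the number tested is in brackets. The mitosis and S phase lists reach furthest to the right, the NF-kB, NRF2 and inhibitory receptor lists reach about as far to the left as the C-type lectin list, and the ribosome biogenesis and cholesterol lists have no bar.

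Promoters of 5 of the genes discussed are shown because they carry elements read by cell cycle regulators or because they are arranged as pairs. RefSeq promoters (GRCm38.p6, 250 bases before to 50 after a start) were at hand for 10019 of the tested genes. The cell cycle homology region (CHR), searched as TTTGAA on both strands, and the CCAAT box, searched as CCAAT, are elements through which the DREAM and MuvB complexes and NF-Y act on mitotic genes. E2F sites, searched as TTTCCCGC or TTTGGCGC, are known from genes of S phase. Capitals mark every match to these, none of which overlaps another in the promoters printed, and ATTGG is a CCAAT box on the other strand.

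The promoter of Prc1 (chr7:80294201-80294500, plus strand) holds a CCAAT box and a CHR, that of Ncapd2 (chr6:125191537-125191836, minus strand) holds 1 CHR, 3 CCAAT boxes and 1 E2F match, and that of Mcm6 (chr1:128359656-128359955, minus strand) holds 2 E2F matches and 2 CCAAT boxes:
Prc1: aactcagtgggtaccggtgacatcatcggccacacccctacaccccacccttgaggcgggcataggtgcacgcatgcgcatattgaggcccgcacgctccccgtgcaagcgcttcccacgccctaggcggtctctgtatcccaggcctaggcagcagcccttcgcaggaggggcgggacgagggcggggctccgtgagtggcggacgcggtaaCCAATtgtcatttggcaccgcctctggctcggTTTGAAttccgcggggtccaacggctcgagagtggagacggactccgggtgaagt
Ncapd2: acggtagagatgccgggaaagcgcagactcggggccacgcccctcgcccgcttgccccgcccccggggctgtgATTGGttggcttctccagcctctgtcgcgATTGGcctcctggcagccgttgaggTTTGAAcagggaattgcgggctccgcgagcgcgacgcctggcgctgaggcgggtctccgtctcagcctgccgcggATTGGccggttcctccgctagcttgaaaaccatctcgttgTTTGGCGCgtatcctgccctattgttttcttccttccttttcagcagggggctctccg
Mcm6: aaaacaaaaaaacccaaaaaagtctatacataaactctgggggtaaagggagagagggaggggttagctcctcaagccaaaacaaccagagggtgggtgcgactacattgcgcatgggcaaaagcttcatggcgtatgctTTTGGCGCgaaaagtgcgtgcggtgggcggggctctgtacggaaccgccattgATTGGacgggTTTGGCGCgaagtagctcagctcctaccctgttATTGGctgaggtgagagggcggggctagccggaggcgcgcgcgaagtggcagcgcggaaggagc

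TTTGAA was present in 62.3% of 77 promoters of the mitosis list and in 12.2% of the 12754 promoters of all genes tested. It was present in 19.3% of promoters of genes higher in LynKO and 11.4% of those of genes lower in LynKO. The genes higher include 69 of the 82 mitosis genes tested, so their share is not separate from that of the mitosis list. CCAAT was present in 74.0% of promoters of the mitosis list and in 37.7% of all, with 40.5% for genes higher and 37.2% for genes lower in LynKO, near the share of all. It was also present in 70.8% of 24 promoters of the cholesterol synthesis list, in which no gene was called. An E2F match was present in 32.2% of 59 promoters of the S phase list, 4.5% of those of genes higher in LynKO, 1.2% of those of genes lower in LynKO and 2.9% of all. Here too the genes higher include 38 of the 63 S phase genes tested. Not every raised cell cycle gene had a match: the promoter of Tk1 held 0 matches to the CHR, the CCAAT box or E2F. The promoters of Lig1 and Clspn held 0 matches to E2F. A match is a description of letters and not of binding.

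Genes of mitosis and of DNA replication were higher in LynKO macrophages. Of 82 mitosis and cytokinesis genes tested, 69 rose and 0 fell, with a median log2 fold change of 1.008, against 0.005 for all genes tested. Of 63 S phase and DNA replication genes, 38 rose and 0 fell, with a median of 0.679. Without the libraries labelled LynKO NT 4 and LynBKO NT 4, 65 and 29 rose and none fell.

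Prc1, which bundles microtubules at the midzone of the spindle, had 18.1, 15.9, 15.8 and 14.8 CPM in LynKO libraries, against 4.70, 5.68, 8.48 and 7.31 CPM in WT libraries. Its groups did not overlap (log2 fold change 1.31 ± 0.14, adjusted p = 9.28e-06). Tpx2, which nucleates spindle microtubules and activates Aurora A, had 18.3, 18.8, 17.4 and 15.5 CPM in LynKO libraries, against 7.95, 9.98, 9.17 and 9.98 CPM in WT libraries (log2 fold change 0.93 ± 0.11, adjusted p = 1.4e-05). Every LynKO library was above every WT library for Tpx2 as well. Ncapd2, a condensin subunit that compacts chromosomes, had 25.2, 20.5, 19.2 and 19.8 CPM in LynKO libraries, against 9.91, 10.9, 11.3 and 11.8 CPM in WT libraries (log2 fold change 0.96 ± 0.13, adjusted p = 6.91e-05). Cdca2, which targets phosphatase 1 to chromatin at mitotic exit, differed by 1.18 ± 0.15, Anln, the actin-binding anillin of the cleavage furrow, by 1.43 ± 0.17, and Iqgap3, an actin scaffold of dividing cells, by 1.55 ± 0.17. Aurkb, the kinase of the chromosomal passenger complex, was among the smaller changes at 0.48 ± 0.10 (adjusted p = 0.00263).

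On the replication side, Lig1, which joins Okazaki fragments, had 43.6, 42.02, 39.1 and 43.2 CPM in LynKO libraries, against 20.98, 29.2, 23.95 and 26.7 CPM in WT libraries (log2 fold change 0.75 ± 0.08, adjusted p = 1.02e-05). Mcm6, a subunit of the replicative helicase whose promoter is printed above, had 90.6, 83.1, 97.8 and 111 CPM in LynKO libraries, against 55.03, 67.4, 56.3 and 49.4 CPM in WT libraries (log2 fold change 0.76 ± 0.11, adjusted p = 0.000126). Pcna, the sliding clamp of DNA polymerases, had 276, 237, 305 and 337 CPM in LynKO libraries, against 156, 186, 179 and 144 CPM in WT libraries (log2 fold change 0.81 ± 0.13, adjusted p = 0.000252). In Pcna and Mcm6 the library labelled LynKO NT 4 was the highest, and without it and LynBKO NT 4 the log2 fold changes were 0.72 and 0.68, both still called. Tk1, the thymidine salvage kinase, differed by 1.13 ± 0.15, Clspn, a mediator of the replication checkpoint, by 1.40 ± 0.20, and Pclaf, a PCNA-binding factor, by 1.76 ± 0.30. Cdc6, which loads the helicase at origins, rose by 0.87 ± 0.25 (adjusted p = 0.032) and lost its call without the mixed libraries (adjusted p = 0.133).

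Regulators of entry into and exit from the cycle were mixed: of 51 tested, 8 rose and 2 fell, with a median log2 fold change of 0.063. That is 19.6% called, beside 9.9% of all genes tested. Without WT 3, 4 fell, and 1 fell without any of LynKO 3, LynKO 4, WT 1 or WT 4. Foxm1, the transcription factor of late cell cycle genes, had 9.36, 9.40, 7.41 and 7.15 CPM in LynKO libraries, against 1.67, 3.89, 4.24 and 3.22 CPM in WT libraries (log2 fold change 1.36 ± 0.20, adjusted p = 0.00015). Ccnd1, the D-type cyclin that mitogens induce, had 27.4, 20.1, 22.96 and 30.04 CPM in LynKO libraries, against 6.79, 17.9, 9.89 and 5.34 CPM in WT libraries (log2 fold change 1.35 ± 0.31, adjusted p = 0.0076). In both genes the groups did not overlap, though WT 2 came close to the LynKO libraries in Ccnd1. Rbl1, which encodes the pocket protein p107 and is known as a brake, rose by 0.63 ± 0.09. Cdkn2c, which encodes the CDK4/6 inhibitor p18, another brake, rose by 0.49 ± 0.10. Fbxo5, which encodes EMI1, an inhibitor of the anaphase-promoting complex, rose by 0.85 ± 0.16. Gadd45a, a stress-induced growth arrest gene, fell by 0.82 ± 0.14 with 7.56, 6.42, 6.78 and 9.08 CPM in LynKO libraries, against 14.7, 13.5, 10.1 and 14.9 CPM in WT libraries. The CDK inhibitors Cdkn1a (p21) and Cdkn1b (p27) had log2 fold changes of -0.27 ± 0.09 and -0.19 ± 0.07, which did not pass (adjusted p = 0.0532 and 0.0803). Myc did not pass either (log2 fold change 1.04 ± 0.34, adjusted p = 0.057), and its groups overlapped.

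**Figure D2:**
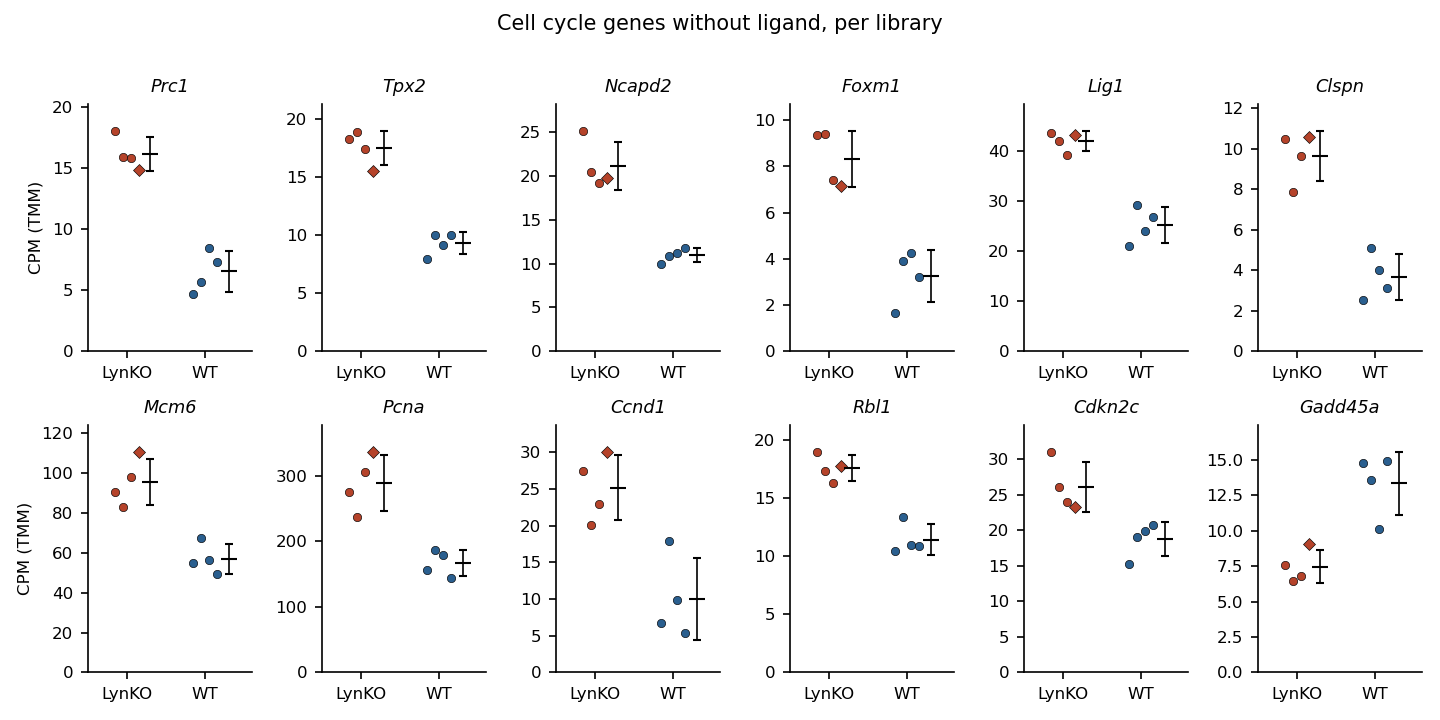
CPM of 12 cell cycle genes in each library, LynKO left and WT right; bars are the mean and SD of 4 libraries and the diamond is the library labelled LynKO NT 4. In Prc1 the LynKO libraries lie between 14.8 and 18.1 CPM and the WT libraries between 4.70 and 8.48 CPM, and Gadd45a alone has its LynKO libraries below.

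Of the genes of M-CSF signalling and the RAS-ERK pathway, 9 rose and 5 fell among 54 tested (25.9% called, beside 9.9% of all genes tested). Their median log2 fold change was -0.03. Those that rose include several inhibitors of the pathway that ERK signalling is known to induce. Dusp5, a nuclear phosphatase of ERK, had 22.3, 21.4, 19.5 and 19.9 CPM in LynKO libraries, against 13.4, 13.4, 11.96 and 8.12 CPM in WT libraries (log2 fold change 0.84 ± 0.17, adjusted p = 0.00215). Spred2, which holds back RAF activation by RAS, had 14.9, 17.5, 15.02 and 15.3 CPM in LynKO libraries, against 7.95, 10.1, 11.2 and 8.37 CPM in WT libraries (log2 fold change 0.75 ± 0.13, adjusted p = 0.000743). Both had all LynKO libraries above all WT libraries. Spry2, a receptor tyrosine kinase feedback inhibitor, rose by 0.69 ± 0.16 and Dusp1, a phosphatase of MAP kinases, by 0.75 ± 0.12, and Spry2 lost its call without the mixed libraries (adjusted p = 0.0512). Rasa1, a RAS GTPase-activating protein, rose by 0.57 ± 0.10, and Rasgrp3, an exchange factor that loads RAS and RAP with GTP, by 0.62 ± 0.14.

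The immediate early genes of the list went both ways. Fos, an AP-1 subunit, had 272, 249, 288 and 346 CPM in LynKO libraries, against 176, 197, 194 and 177 CPM in WT libraries (log2 fold change 0.65 ± 0.09, adjusted p = 8.38e-05), with every LynKO library higher. Egr1, a zinc finger factor induced by ERK, was lower in every LynKO library, with 1.05, 0.897, 0.780 and 1.40 CPM in LynKO libraries, against 7.07, 3.65, 1.87 and 2.16 CPM in WT libraries (log2 fold change -1.81 ± 0.37, adjusted p = 0.00264). Ier3, an early response gene also induced by NF-kB, had 14.2, 12.9, 14.7 and 12.9 CPM in LynKO libraries, against 31.5, 28.6, 29.3 and 29.8 CPM in WT libraries (log2 fold change -1.11 ± 0.09, adjusted p = 2.02e-07). Each LynKO library of Ier3 was below each WT library. Fos, Dusp1 and Egr1 also belong to a list of 14 genes known to respond to the handling of cells. Of these 14, 3 rose and 2 fell, a share of 35.7% beside 9.9% of all genes tested, with a median of 0.212. The part of handling in the values of these genes was not tested. Dusp6, an ERK phosphatase, did not pass (log2 fold change -0.10 ± 0.14, adjusted p = 0.724). Csf1r fell by 0.21 ± 0.07 at an adjusted p of 0.0493, and kept that call only without LynKO 3 among the 8 sets that leave out 1 library. Leaving out any of LynKO 1, 2 or 4 left 3 of the 5 lower calls.

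Of 41 genes of the PI3K, AKT and FoxO axis, 2 rose and 2 fell, a share of 9.8% that is close to the 9.9% of all genes tested. Pik3ap1, the PI3K adaptor BCAP, rose by 0.51 ± 0.12 and Rptor, the mTORC1 scaffold Raptor, by 0.51 ± 0.10. Pik3r6, a regulatory subunit of PI3K gamma, fell by 0.63 ± 0.10 and Inpp4a, an inositol phosphatase, fell by 0.38 ± 0.09. Irs2, a gene that FoxO factors are known to induce, did not pass (log2 fold change -0.30 ± 0.14, adjusted p = 0.214). None of 42 ribosome biogenesis genes was called, with a median of 0.011. Ncl, which encodes nucleolin, had 316, 291, 298 and 295 CPM in LynKO libraries, against 273, 308, 299.8 and 298 CPM in WT libraries, groups that overlapped.

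Among 37 Src-family kinases and their regulators, 3 rose and 5, Lyn included, fell (21.6% called, beside 9.9% of all genes tested). Fyn, a Src-family kinase, had 68.2, 75.3, 73.3 and 68.00 CPM in LynKO libraries, against 51.8, 59.1, 56.2 and 47.1 CPM in WT libraries (log2 fold change 0.42 ± 0.07, adjusted p = 0.000538). Fgr, a family member typical of myeloid cells, fell by 0.37 ± 0.11 and lost its call without the mixed libraries (adjusted p = 0.0995). Ptk2, focal adhesion kinase, rose by 0.71 ± 0.13 and Ptpn22, a phosphatase that acts on Src-family kinases, by 0.52 ± 0.10. Hcls1, an actin-binding substrate of Lyn, fell by 0.20 ± 0.05, and Csk, the kinase that inhibits the family, did not pass (log2 fold change -0.04 ± 0.06, adjusted p = 0.715). The lower count was 2 without WT 4 and 3 without any of LynKO 2, 3 or 4.

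Among 335 receptor and signalling genes tested, Lyn included, 57 were lower in LynKO and 33 higher. That is 26.9% called, beside 9.9% of all genes tested, of which 5.43% were higher and 4.47% lower. The median log2 fold change was -0.032, and without the mixed libraries 39 were lower and 28 higher. Among C-type lectin receptors, which bind fungal and dead-cell ligands, 8 of 21 fell and 2 rose, with a median log2 fold change of -0.468. The 2 that rose were 0 without the mixed libraries and 1 without any of LynKO 4, WT 1 or WT 3. Clec4n, which encodes the fungal receptor Dectin-2, had 7.84, 9.40, 12.1 and 11.8 CPM in LynKO libraries, against 49.3, 26.4, 35.4 and 47.2 CPM in WT libraries (log2 fold change -1.93 ± 0.19, adjusted p = 3.39e-06). Clec4e, which encodes Mincle, had 104, 111, 119.9 and 107 CPM in LynKO libraries, against 186, 161, 184 and 203 CPM in WT libraries (log2 fold change -0.72 ± 0.10, adjusted p = 0.000106). Cd302, an endocytic lectin, had 34.3, 42.4, 44.7 and 41.2 CPM in LynKO libraries, against 76.4, 61.9, 66.9 and 68.8 CPM in WT libraries (log2 fold change -0.74 ± 0.08, adjusted p = 1.12e-05). In all of them each LynKO library was below each WT library. Clec4d, the Mincle partner MCL, fell by 0.47 ± 0.07 and Clec7a, Dectin-1, fell by 0.47 ± 0.12. Clec4b1 rose by 1.36 ± 0.35 from low counts. The calls of Clec7a and Clec4b1 were lost without the mixed libraries (adjusted p = 0.0734 and 0.0517). Reads of the close paralogs Clec4a1, Clec4a3 and Clec4b1 could be split by the counting, which makes their values uncertain.

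Of 23 Fc and other activating receptors, 6 fell and 0 rose, with a median of -0.247. Clec5a, a receptor that signals through DAP12, had 21.96, 20.7, 22.1 and 20.4 CPM in LynKO libraries, against 33.7, 27.8, 39.1 and 41.8 CPM in WT libraries (log2 fold change -0.73 ± 0.15, adjusted p = 0.00269). Fcgr3, the low-affinity activating Fc receptor, had 247, 237, 168 and 190.2 CPM in LynKO libraries, against 326, 267, 268 and 286 CPM in WT libraries (log2 fold change -0.43 ± 0.10, adjusted p = 0.00714). LynKO was lower without overlap in both. Fcer1g, the ITAM-bearing gamma chain, fell by 0.31 ± 0.08, whereas Fcgr1, the high-affinity receptor, did not pass (log2 fold change 0.24 ± 0.10, adjusted p = 0.137). The count was 2 without WT 1 and 3 without any of WT 2, LynKO 1 or LynKO 4. Lcp2, the adaptor SLP-76 that couples these receptors to phospholipase C, had 23.6, 26.3, 24.3 and 21.3 CPM in LynKO libraries, against 42.4, 41.5, 36.3 and 43.3 CPM in WT libraries (log2 fold change -0.76 ± 0.12, adjusted p = 0.00036), and Syk, the kinase that binds phosphorylated ITAMs, did not pass (log2 fold change -0.21 ± 0.08, adjusted p = 0.116).

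Inhibitory receptors, through which Lyn acts as a brake, had 12 of 30 lower and 4 higher, with a median of -0.107. Fcgr2b, the inhibitory Fc receptor, had 25.05, 24.8, 30.8 and 23.7 CPM in LynKO libraries, against 46.8, 43.1, 46.3 and 45.6 CPM in WT libraries (log2 fold change -0.79 ± 0.08, adjusted p = 7.69e-06). The WT libraries lay between 43.1 and 46.8 CPM and no LynKO library passed 30.8 CPM. Pilra, a paired immunoglobulin-like receptor, fell by 1.39 ± 0.28, Cd300lf fell by 0.40 ± 0.08, Pirb fell by 0.30 ± 0.07 and Cd300a fell by 0.28 ± 0.07, all of which carry ITIMs. Pirb lost its call without the mixed libraries (adjusted p = 0.0512). Cd72, an ITIM receptor first known from B cells, went the other way with 555, 543, 688 and 638 CPM in LynKO libraries, against 372, 428, 332 and 352 CPM in WT libraries (log2 fold change 0.72 ± 0.10, adjusted p = 0.000122). Havcr2, which encodes TIM-3, had 44.3, 49.6, 47.7 and 48.6 CPM in LynKO libraries, against 23.8, 25.5, 33.2 and 29.1 CPM in WT libraries (log2 fold change 0.78 ± 0.10, adjusted p = 2.48e-05). Both were higher in every LynKO library. Lair1, an inhibitory receptor for collagen, rose by 0.58 ± 0.09, and Sirpa, the receptor for CD47, did not pass (log2 fold change 0.01 ± 0.06, adjusted p = 0.948).

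Pattern recognition receptors were divided, with 4 of 43 higher and 5 lower (20.9% called, beside 9.9% of all genes tested). Tlr2, the receptor for bacterial lipopeptides, had 161, 157, 159 and 147 CPM in LynKO libraries, against 284, 243, 255 and 301 CPM in WT libraries (log2 fold change -0.78 ± 0.09, adjusted p = 9.27e-06). Every LynKO library lay well under the lowest WT library. Tlr7, the receptor for R848, fell by 0.45 ± 0.12 and Unc93b1, which carries nucleic acid-sensing Toll-like receptors to endosomes, fell by 0.30 ± 0.06. Tlr7 lost its call without the mixed libraries (adjusted p = 0.091), and the library labelled LynKO NT 4 was its lowest at 66.9 CPM. Tlr4 and its co-receptor Cd14, which sense LPS, did not pass (log2 fold change 0.06 ± 0.11, adjusted p = 0.789 for Tlr4; log2 fold change -0.07 ± 0.08, adjusted p = 0.663 for Cd14). Nlrp3, an inflammasome sensor, fell by 0.47 ± 0.11 with a call that was lost without the mixed libraries (adjusted p = 0.053), while Nlrp1b, another one, rose by 0.56 ± 0.11. Of the 4 genes higher, 1 kept its call without WT 1 or without WT 4, and 2 without LynKO 3. The lower count was 3 without LynKO 4 and 2 without the mixed libraries.

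Receptors for chemoattractants, lipids and purines had 11 of 59 lower and 5 higher (27.1% called, beside 9.9% of all genes tested). The formyl peptide receptors, which guide phagocytes to bacteria, fell together from low counts. Fpr2 had 1.09, 0.755, 1.02 and 1.11 CPM in LynKO libraries, against 4.05, 2.27, 4.09 and 3.91 CPM in WT libraries (log2 fold change -1.83 ± 0.24, adjusted p = 4.96e-05), and Fpr1 had 0.665, 0.236, 0.780 and 0.483 CPM in LynKO libraries, against 2.00, 2.31, 2.06 and 4.13 CPM in WT libraries (log2 fold change -2.26 ± 0.32, adjusted p = 9.84e-05). The 4 LynKO libraries held 83 counts of Fpr2 and 45 of Fpr1 in all, against 357 and 267 in WT. P2rx4, an ATP-gated channel, fell by 0.42 ± 0.06 and Gpr84, a receptor for medium-chain fatty acids, fell by 0.68 ± 0.15. Gpr183, which senses oxysterols, rose by 0.52 ± 0.10 and S1pr1, a sphingosine 1-phosphate receptor, by 0.46 ± 0.10. The lower count was 7 without any of LynKO 3, LynKO 4 or WT 4.

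Among cytokine and growth factor receptors, 7 of 64 rose and 6 fell (20.3% called, beside 9.9% of all genes tested). Fgfr1, a fibroblast growth factor receptor, had 5.13, 5.48, 6.92 and 8.36 CPM in LynKO libraries, against 1.58, 2.47, 1.95 and 1.24 CPM in WT libraries (log2 fold change 1.85 ± 0.29, adjusted p = 0.000252). Il13ra1, a chain of the type II IL-4 receptor, was lower with 5.18, 4.25, 4.10 and 4.20 CPM in LynKO libraries, against 11.8, 9.41, 8.33 and 8.30 CPM in WT libraries (log2 fold change -1.08 ± 0.14, adjusted p = 5.43e-05). Fas, the death receptor, had 4.66, 5.52, 4.44 and 6.67 CPM in LynKO libraries, against 11.5, 10.02, 11.1 and 11.4 CPM in WT libraries (log2 fold change -1.04 ± 0.14, adjusted p = 6.45e-05). Each of these genes separated the groups, Fgfr1 upwards in LynKO and the others downwards. Tnfrsf11a, which encodes RANK, rose by 0.64 ± 0.12 and Il7r by 0.42 ± 0.10, and Tnfrsf1b, TNF receptor 2, fell by 0.39 ± 0.09. Csf3r, the G-CSF receptor, fell by 0.63 ± 0.07. Il7r is also a T cell marker, and 16 of 17 markers of T and NK cells were under 5 CPM in all 8 libraries. The higher count was 4 without LynKO 2 or without WT 2.

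Notch4, a Notch receptor best known from endothelium, was one of the most changed receptor genes, with 21.7, 15.7, 22.4 and 24.4 CPM in LynKO libraries, against 3.77, 4.74, 7.83 and 7.82 CPM in WT libraries (log2 fold change 1.80 ± 0.20, adjusted p = 9.28e-06). Its LynKO libraries began at 15.7 CPM and its WT libraries ended at 7.83 CPM. Of 39 integrins and adhesion genes, 5 rose and 2 fell (17.9% called, beside 9.9% of all genes tested). Itgav, the alpha V integrin of vitronectin and osteopontin receptors, had 328, 259.9, 255 and 266 CPM in LynKO libraries, against 156, 161, 192 and 162 CPM in WT libraries (log2 fold change 0.74 ± 0.08, adjusted p = 1.12e-05), and Itga6, a laminin-binding subunit, had 341, 308, 309 and 287 CPM in LynKO libraries, against 190.2, 196, 239.9 and 195 CPM in WT libraries (log2 fold change 0.61 ± 0.09, adjusted p = 0.000203). Neither overlapped between groups. L1cam, an adhesion molecule of the immunoglobulin superfamily, rose by 1.00 ± 0.11, Icam1 fell by 0.46 ± 0.07, and the leukocyte integrin chains Itgam and Itgb2 did not pass (log2 fold change -0.12 ± 0.08, adjusted p = 0.387 for Itgam; log2 fold change 0.03 ± 0.05, adjusted p = 0.808 for Itgb2).

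Scavenger and efferocytosis genes changed in both directions, with 4 of 31 higher and 6 lower (32.3% called, beside 9.9% of all genes tested). Cd5l, a secreted scavenger protein of tissue macrophages also called AIM, had 82.9, 62.98, 86.8 and 62.4 CPM in LynKO libraries, against 18.7, 29.5, 13.03 and 11.6 CPM in WT libraries (log2 fold change 2.04 ± 0.23, adjusted p = 9.28e-06). Folr2, a folate receptor of tissue-resident macrophages, had 239, 217, 194 and 326 CPM in LynKO libraries, against 26.5, 91.97, 61.5 and 36.05 CPM in WT libraries (log2 fold change 2.19 ± 0.30, adjusted p = 7.98e-05). Cd36, which takes up fatty acids and oxidised lipoprotein, had 371, 298, 322 and 448 CPM in LynKO libraries, against 148, 229, 197 and 134 CPM in WT libraries (log2 fold change 1.04 ± 0.19, adjusted p = 0.00129). LynKO was above WT in every library for these genes. Gas6, which bridges phosphatidylserine on dying cells to its receptors, had 136, 134, 127 and 130.4 CPM in LynKO libraries, against 233, 223, 216 and 215 CPM in WT libraries (log2 fold change -0.74 ± 0.07, adjusted p = 3.39e-06), and Mertk, a receptor of Gas6, fell by 0.45 ± 0.10. Stab1 fell by 0.43 ± 0.08 and Lrp1 rose by 0.44 ± 0.09.

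**Figure D3:**
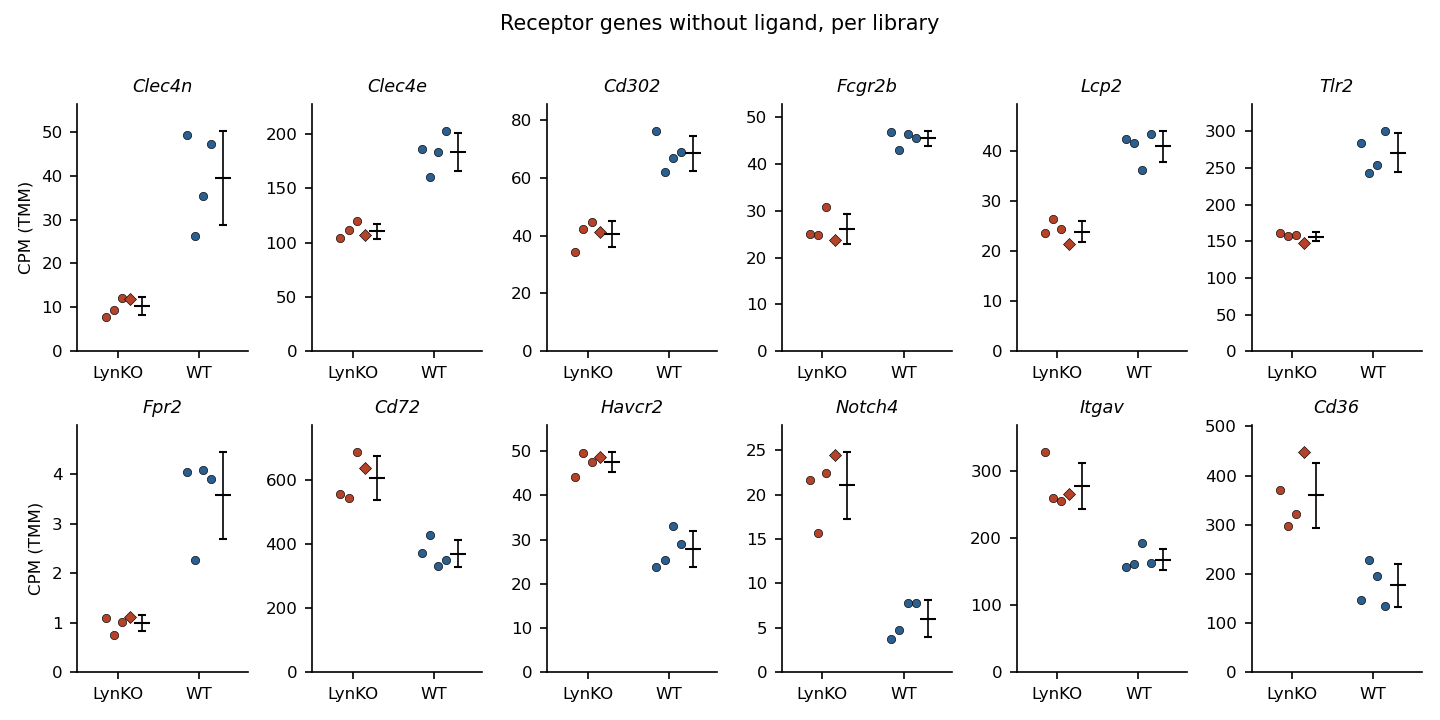
CPM of 12 receptor and adaptor genes in each library, LynKO left and WT right; bars are the mean and SD of 4 libraries and the diamond is the library labelled LynKO NT 4. Tlr2 lies between 147 and 161 CPM in LynKO and between 243 and 301 CPM in WT, while Cd72, Havcr2, Notch4, Itgav and Cd36 have their LynKO libraries above.

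Among metabolic and stress lists, 67 genes were lower and 21 higher of 388 tested (22.7% called, beside 9.9% of all genes tested). The targets of NRF2, the factor that induces antioxidant and glutathione genes, had 12 of 30 lower and 0 higher, with a median of -0.22. Slc7a11, the cystine importer that feeds glutathione synthesis, had 4.66, 3.92, 3.95 and 4.49 CPM in LynKO libraries, against 13.1, 8.47, 12.1 and 14.7 CPM in WT libraries (log2 fold change -1.49 ± 0.18, adjusted p = 2.55e-05). Prdx1, a peroxidase, had 617, 577, 702 and 664 CPM in LynKO libraries, against 968, 826, 871 and 918 CPM in WT libraries (log2 fold change -0.47 ± 0.07, adjusted p = 8.65e-05), and Gsr, glutathione reductase, had 70.6, 74.3, 82.8 and 62.3 CPM in LynKO libraries, against 111, 90.95, 117 and 108 CPM in WT libraries (log2 fold change -0.55 ± 0.09, adjusted p = 0.000633). LynKO and WT libraries did not overlap in any of them. Gclm, a subunit of glutamate-cysteine ligase, fell by 0.46 ± 0.09, catalase (Cat) fell by 0.39 ± 0.07, and Nfe2l2, which encodes NRF2, fell by 0.38 ± 0.06. Nqo1 and Hmox1, classical targets, did not pass (log2 fold change 0.12 ± 0.20, adjusted p = 0.786 for Nqo1; log2 fold change 0.03 ± 0.13, adjusted p = 0.924 for Hmox1). The antioxidant response element, searched as TGACNNNGC on both strands, was present in 32.3% of the promoters of the list, 13.9% of those of genes higher in LynKO, 16.7% of those of genes lower in LynKO and 14.5% of all.

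Of 49 genes of the integrated stress and unfolded protein responses, 17 fell and 0 rose, with a median of -0.185, and 18 fell without the mixed libraries. Hspa5, the chaperone BiP, had 470.1, 459, 401 and 377 CPM in LynKO libraries, against 693, 629, 527 and 570.2 CPM in WT libraries (log2 fold change -0.49 ± 0.09, adjusted p = 0.000796). Manf, a secreted ER stress factor, had 52.1, 52.6, 55.04 and 53.03 CPM in LynKO libraries, against 83.3, 80.9, 65.4 and 76.9 CPM in WT libraries (log2 fold change -0.51 ± 0.08, adjusted p = 0.000138). Herpud1, part of ER-associated degradation, had 11.03, 11.99, 9.85 and 7.92 CPM in LynKO libraries, against 22.4, 17.6, 18.8 and 25.3 CPM in WT libraries (log2 fold change -1.03 ± 0.16, adjusted p = 0.000252). All LynKO libraries were below all WT libraries. Hsp90b1 (GRP94) fell by 0.44 ± 0.08, Calr (calreticulin) fell by 0.42 ± 0.07 and Pdia6, a disulfide isomerase, fell by 0.49 ± 0.08. Atf4, Ddit3 and Asns, of the branch that eIF2 phosphorylation starts, had log2 fold changes of -0.18 ± 0.06, -0.04 ± 0.16 and 0.30 ± 0.12, and none passed (adjusted p = 0.0808, 0.923 and 0.124).

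Iron genes were lower too, 8 of 28 against 1 higher. Slc40a1, which encodes the iron exporter ferroportin, had 21.6, 18.5, 24.3 and 15.9 CPM in LynKO libraries, against 56.4, 53.9, 59.7 and 71.04 CPM in WT libraries (log2 fold change -1.57 ± 0.14, adjusted p = 1.15e-06). The highest LynKO library, at 24.3 CPM, was under the lowest WT library, at 53.9 CPM. Fth1, the ferritin heavy chain, fell by 0.39 ± 0.08, Slc11a1, a phagosomal metal transporter, fell by 0.42 ± 0.07 and Blvrb, biliverdin reductase B, fell by 0.50 ± 0.08. Tfrc, the transferrin receptor, did not pass (log2 fold change 0.05 ± 0.14, adjusted p = 0.87). The lower count was 5 without WT 1.

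In central carbon metabolism the shares called were near the 9.9% of all genes: 3 of 44 glycolysis and HIF-1 genes were higher and 3 lower (13.6%), and 1 of 58 TCA cycle and respiratory genes was higher and 4 lower (8.6%). None of 26 cholesterol synthesis genes was called. The 3 higher glycolysis calls were 0 without any of LynKO 2, LynKO 4, WT 1 or WT 4, and 1 without LynKO 1, without LynKO 3 or without the mixed libraries, while 5 were lower without WT 2. Idh1, the cytosolic isocitrate dehydrogenase, had 443, 438, 467 and 369 CPM in LynKO libraries, against 662, 562, 632 and 625 CPM in WT libraries (log2 fold change -0.52 ± 0.09, adjusted p = 0.00039). Acod1, which makes itaconate from a TCA intermediate, had 17.2, 15.3, 16.1 and 17.05 CPM in LynKO libraries, against 66.3, 55.9, 41.7 and 67.7 CPM in WT libraries (log2 fold change -1.80 ± 0.22, adjusted p = 2.18e-05). Slc2a6, a lysosomal glucose transporter family member, had 76.5, 83.5, 76.98 and 70.03 CPM in LynKO libraries, against 141, 112, 117 and 121 CPM in WT libraries (log2 fold change -0.66 ± 0.09, adjusted p = 0.000105). LynKO was lower without overlap in all of them. Slc2a1, Hk2 and Ldha, which import, phosphorylate and ferment glucose, did not pass (log2 fold changes -0.27 ± 0.09, -0.24 ± 0.08 and 0.15 ± 0.06). Without WT 3, 7 TCA cycle and respiratory genes were lower, and the 1 higher call was lost without LynKO 1, without WT 1 or without the mixed libraries.

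Lipid handling genes had 9 of 52 higher and 5 lower (26.9% called, beside 9.9% of all genes tested). Pparg, the lipid-sensing nuclear receptor, had 42.97, 32.6, 46.4 and 48.6 CPM in LynKO libraries, against 18.2, 20.96, 25.8 and 17.3 CPM in WT libraries (log2 fold change 1.06 ± 0.14, adjusted p = 7.43e-05). Lpl, lipoprotein lipase, had 1728, 1486, 1812 and 2109 CPM in LynKO libraries, against 498, 939, 911 and 541 CPM in WT libraries (log2 fold change 1.32 ± 0.20, adjusted p = 0.000209). Both were higher in every LynKO library. Nr1h3, the oxysterol receptor LXR alpha, rose by 0.37 ± 0.09 (adjusted p = 0.0145), and its adjusted p without the mixed libraries was 0.068. The fatty acid chaperone Fabp4, a textbook PPAR gamma target, was lower, with 11.2, 12.1, 13.7 and 15.4 CPM in LynKO libraries, against 23.5, 25.1, 23.4 and 25.01 CPM in WT libraries (log2 fold change -0.88 ± 0.13, adjusted p = 0.000148). Fabp5 fell by 0.51 ± 0.09, the cholesterol esterifying enzyme Soat1 fell by 0.31 ± 0.06 and apolipoprotein E (Apoe) fell by 0.70 ± 0.16, while the sterol exporter Abca1 did not pass (log2 fold change 0.02 ± 0.16, adjusted p = 0.967). The higher count was 4 without LynKO 3 and 5 without any of LynKO 4, WT 1 or WT 4.

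Of 7 genes of polyamine metabolism, chosen after their values were seen, 3 rose, 2 fell and 2 did not pass. Odc1, ornithine decarboxylase, had 137, 156, 133 and 147 CPM in LynKO libraries, against 84.3, 93.1, 71.8 and 60.5 CPM in WT libraries (log2 fold change 0.90 ± 0.12, adjusted p = 6.3e-05). Amd1, which supplies the aminopropyl donor, had 31.7, 31.7, 34.3 and 32.1 CPM in LynKO libraries, against 23.9, 22.1, 25.4 and 22.6 CPM in WT libraries (log2 fold change 0.48 ± 0.08, adjusted p = 0.000252), and Sms, spermine synthase, rose by 0.36 ± 0.09. Arg2, the arginase that forms ornithine in mitochondria, had 3.66, 3.78, 3.66 and 2.41 CPM in LynKO libraries, against 12.2, 7.75, 8.14 and 10.7 CPM in WT libraries (log2 fold change -1.51 ± 0.21, adjusted p = 7.72e-05). The LynKO libraries were all above WT for Odc1 and Amd1 and all below WT for Arg2. Sat1, which acetylates polyamines for export and breakdown, had a log2 fold change of -0.42 (adjusted p = 0.00297), and Srm, spermidine synthase, and Arg1 did not pass (adjusted p = 0.661 and 0.265). The nucleotide and one-carbon list, which holds Odc1, Amd1, Srm and Arg2 among others, had 4 of 42 higher and 1 lower. That share of 11.9% is near the 9.9% of all genes tested.

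Of 63 lysosomal and V-ATPase genes, 17 fell and 4 rose, with a median of -0.125. Psap, the precursor of the saposins that help degrade sphingolipids, had 8533, 8462, 9093 and 7613 CPM in LynKO libraries, against 13388, 11833, 11974 and 12244 CPM in WT libraries (log2 fold change -0.54 ± 0.06, adjusted p = 1.48e-05). Ctsz, a cathepsin, had 887, 811, 873 and 849 CPM in LynKO libraries, against 1282, 1126, 1141 and 1237 CPM in WT libraries (log2 fold change -0.47 ± 0.07, adjusted p = 7.98e-05). Gpnmb, a lysosomal glycoprotein, fell by 0.36 ± 0.06 and Lamp1 fell by 0.26 ± 0.05. These falls were small, yet the groups did not overlap. Ctsl, cathepsin L, rose by 0.44 ± 0.09 and Arsb, arylsulfatase B, by 0.66 ± 0.13. Tfeb, a master regulator of lysosomal genes, did not pass (log2 fold change -0.14 ± 0.06, adjusted p = 0.193). The higher count was 2 without any of LynKO 1, 3 or 4 or WT 2 or 4.

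**Figure D4:**
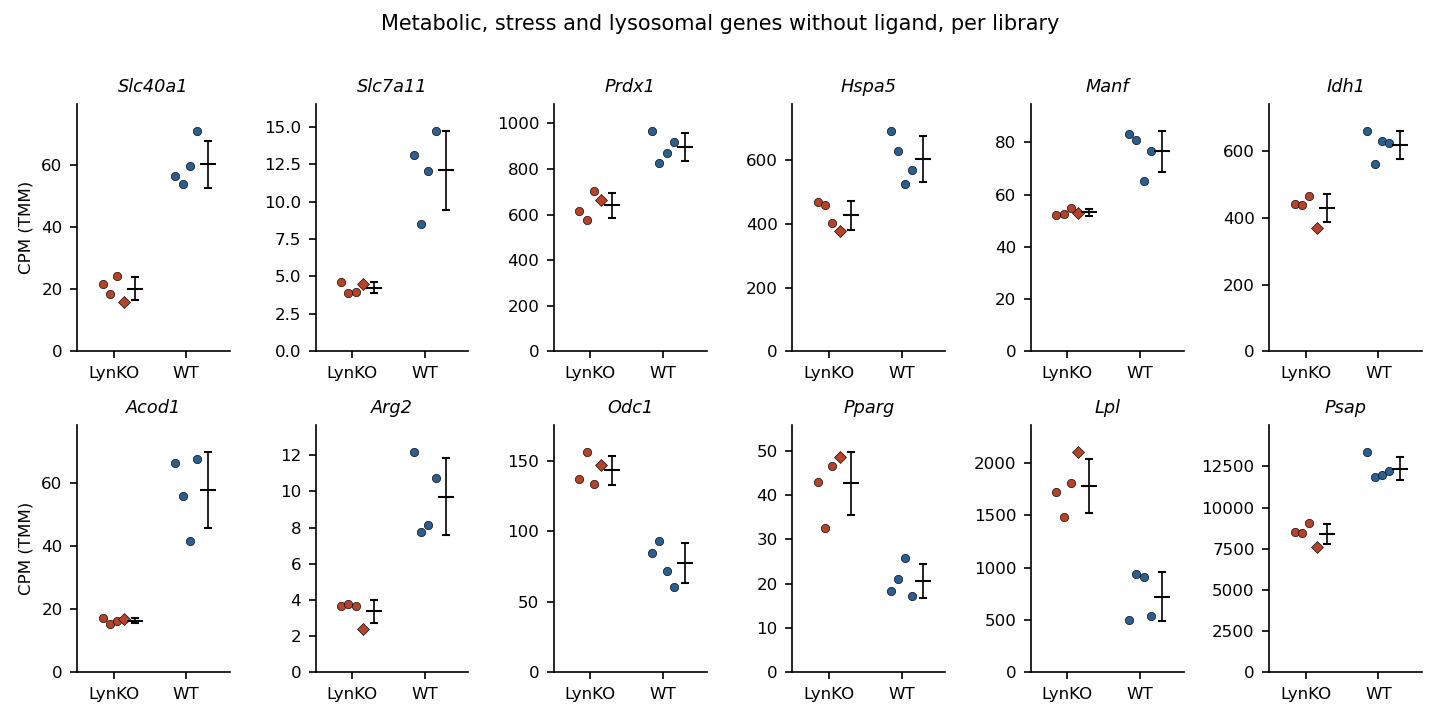
CPM of 12 metabolic, stress and lysosomal genes in each library, LynKO left and WT right; bars are the mean and SD of 4 libraries and the diamond is the library labelled LynKO NT 4. Slc40a1 lies between 15.9 and 24.3 CPM in LynKO and between 53.9 and 71.0 CPM in WT, and Odc1, Pparg and Lpl have their LynKO libraries above.

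Of 45 collagen and basement membrane genes listed 18 passed the filter, of which 7 rose, 0 fell and 11 were not called, with a median of 0.288, and 7 rose without the mixed libraries. Type IV collagen, the network-forming collagen of basement membranes, has 6 chain genes, of which 4 passed the filter and all 4 rose. Because a gene can pass the filter through the group in which it is high, this count is a description. Col4a5 had 50.2, 53.7, 44.4 and 52.4 CPM in LynKO libraries, against 12.3, 20.2, 22.7 and 11.2 CPM in WT libraries (log2 fold change 1.61 ± 0.18, adjusted p = 9.28e-06). Col4a6 had 10.1, 9.49, 8.87 and 13.6 CPM in LynKO libraries, against 0.930, 2.23, 3.36 and 1.13 CPM in WT libraries (log2 fold change 2.46 ± 0.32, adjusted p = 5.73e-05). Col4a1 had 3.04, 2.88, 3.95 and 7.29 CPM in LynKO libraries, against 0.186, 1.01, 1.03 and 0.475 CPM in WT libraries (log2 fold change 2.65 ± 0.42, adjusted p = 0.000252), and Col4a2 had 5.23, 6.04, 7.26 and 11.2 CPM in LynKO libraries, against 1.86, 1.46, 2.90 and 1.24 CPM in WT libraries (log2 fold change 2.00 ± 0.34, adjusted p = 0.000528). In each, LynKO was higher without overlap, and the library labelled LynKO NT 4 was the highest of Col4a1, Col4a2 and Col4a6. Without the mixed libraries the log2 fold changes were 1.58, 2.31, 2.27 and 1.74, all called. The chains Col4a3 and Col4a4 did not pass the filter, with 10 and 27 counts over the 4 LynKO libraries and 11 and 21 over the 4 WT libraries. The stromal markers, which would mark fibroblasts, had 17 of 19 under 5 CPM in all 8 libraries, and the other two, Kitl and Runx2, were called higher in LynKO. Of the endothelial markers 8 of 12 were under 5 CPM and Flt1 was called higher. The part of such cells in the collagen values was not tested.

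The 4 genes lie as 2 head-to-head pairs. The annotated starts of Col4a1 (chr8:11312777-11313076, minus strand) and Col4a2 (chr8:11312555-11312854, plus strand) are 21 bases apart on opposite strands and their promoter windows share 78 bases, whereas the starts of Col4a5 and Col4a6 on chromosome X are 1343 bases apart. Each window of the first pair holds 1 CCAAT box, in capitals, and the windows are shown because both genes of the pair moved together:
Col4a1: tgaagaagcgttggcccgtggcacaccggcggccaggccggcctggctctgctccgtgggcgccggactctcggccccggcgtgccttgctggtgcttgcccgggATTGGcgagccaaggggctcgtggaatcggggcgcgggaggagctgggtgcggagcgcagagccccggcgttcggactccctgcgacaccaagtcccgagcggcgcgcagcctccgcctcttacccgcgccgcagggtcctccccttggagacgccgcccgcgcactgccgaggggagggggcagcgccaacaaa
Col4a2: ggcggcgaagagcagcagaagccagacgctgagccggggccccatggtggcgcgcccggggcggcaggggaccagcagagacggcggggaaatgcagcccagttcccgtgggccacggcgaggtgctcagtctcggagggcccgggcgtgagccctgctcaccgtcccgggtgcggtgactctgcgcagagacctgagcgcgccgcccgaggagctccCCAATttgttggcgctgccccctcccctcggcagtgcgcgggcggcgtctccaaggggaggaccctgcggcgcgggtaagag
The sources used here do not say whether the counting used strand, so reads at such overlapping ends cannot be assigned with certainty.

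Other matrix genes changed in both directions. Agrn, which encodes the proteoglycan agrin, rose by 0.46 ± 0.08 and Col18a1, the precursor of endostatin, by 0.98 ± 0.22, though the Col18a1 groups overlapped. Spp1, which encodes osteopontin, a ligand of alpha V integrins, had 3536, 3269.9, 3259 and 3941 CPM in LynKO libraries, against 1727, 2198, 1705 and 1415 CPM in WT libraries (log2 fold change 1.00 ± 0.14, adjusted p = 9.9e-05). Plod2, a collagen lysyl hydroxylase, had 6.89, 6.00, 6.29 and 7.78 CPM in LynKO libraries, against 2.33, 2.76, 4.20 and 1.43 CPM in WT libraries (log2 fold change 1.34 ± 0.26, adjusted p = 0.00171). All LynKO libraries exceeded all WT libraries in these genes. Tgfbi rose by 0.50 ± 0.10 and the syndecans Sdc3 and Sdc1 by 0.59 ± 0.11 and 0.48 ± 0.10. Thbs1 (thrombospondin 1) and Fn1 (fibronectin) did not pass (log2 fold change -0.22 ± 0.09, adjusted p = 0.16 for Thbs1; log2 fold change -0.62 ± 0.26, adjusted p = 0.157 for Fn1). Of 43 matricellular genes, 9 rose and 4 fell (30.2% called, beside 9.9% of all genes tested), and 2 fell without WT 1 or without the mixed libraries.

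Matrix proteases had 7 of 37 lower and 4 higher (29.7% called, beside 9.9% of all genes tested). Mmp14, the membrane-bound metalloproteinase that cleaves collagen and activates MMP2, had 3.56, 3.92, 5.51 and 3.43 CPM in LynKO libraries, against 13.4, 9.73, 13.03 and 14.8 CPM in WT libraries (log2 fold change -1.62 ± 0.16, adjusted p = 3.39e-06). Mmp12, macrophage elastase, had 28.7, 25.1, 27.6 and 22.3 CPM in LynKO libraries, against 47.9, 42.7, 48.4 and 48.6 CPM in WT libraries (log2 fold change -0.84 ± 0.09, adjusted p = 6.56e-06). Mmp8, a collagenase, had 12.1, 13.97, 8.68 and 10.96 CPM in LynKO libraries, against 30.2, 21.1, 47.8 and 37.1 CPM in WT libraries (log2 fold change -1.56 ± 0.21, adjusted p = 5.49e-05). LynKO was lower without overlap in all of them, and of these genes Mmp8 varied most among the WT libraries. Mmp8 and Csf3r are also neutrophil markers, and 18 of the 20 markers of that list were under 5 CPM in all 8 libraries. Hpse, heparanase, fell by 0.44 ± 0.06. Adam8 rose by 0.50 ± 0.08, and Plau, urokinase, by 1.20 ± 0.32, with overlapping groups and no call without the mixed libraries (adjusted p = 0.0995). The higher count was 2 without LynKO 4.

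Growth and angiogenic factors had 5 of 38 higher and 6 lower (28.9% called, beside 9.9% of all genes tested). Pdgfb, a platelet-derived growth factor chain, had 83.99, 68.9, 90.97 and 105 CPM in LynKO libraries, against 46.3, 41.8, 55.3 and 50.8 CPM in WT libraries (log2 fold change 0.86 ± 0.11, adjusted p = 2.67e-05). Tgfb3 had 16.3, 17.00, 22.4 and 19.8 CPM in LynKO libraries, against 6.84, 12.3, 10.9 and 6.43 CPM in WT libraries (log2 fold change 1.06 ± 0.19, adjusted p = 0.000992), whereas Tgfb1 fell by 0.30 ± 0.07. Both Pdgfb and Tgfb3 were higher in every LynKO library. Fgf13, an intracellular member of the FGF family, rose by 2.02 ± 0.37 from low counts and Angptl2 by 0.71 ± 0.16. Sema4a, a semaphorin, fell by 0.76 ± 0.10 and Igfbp4, which binds insulin-like growth factors, fell by 0.55 ± 0.10. Igf1 and Vegfa did not pass (log2 fold change 0.08 ± 0.08, adjusted p = 0.613 for Igf1; log2 fold change 0.02 ± 0.06, adjusted p = 0.911 for Vegfa). The lower count was 3 without WT 1.

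**Figure D5:**
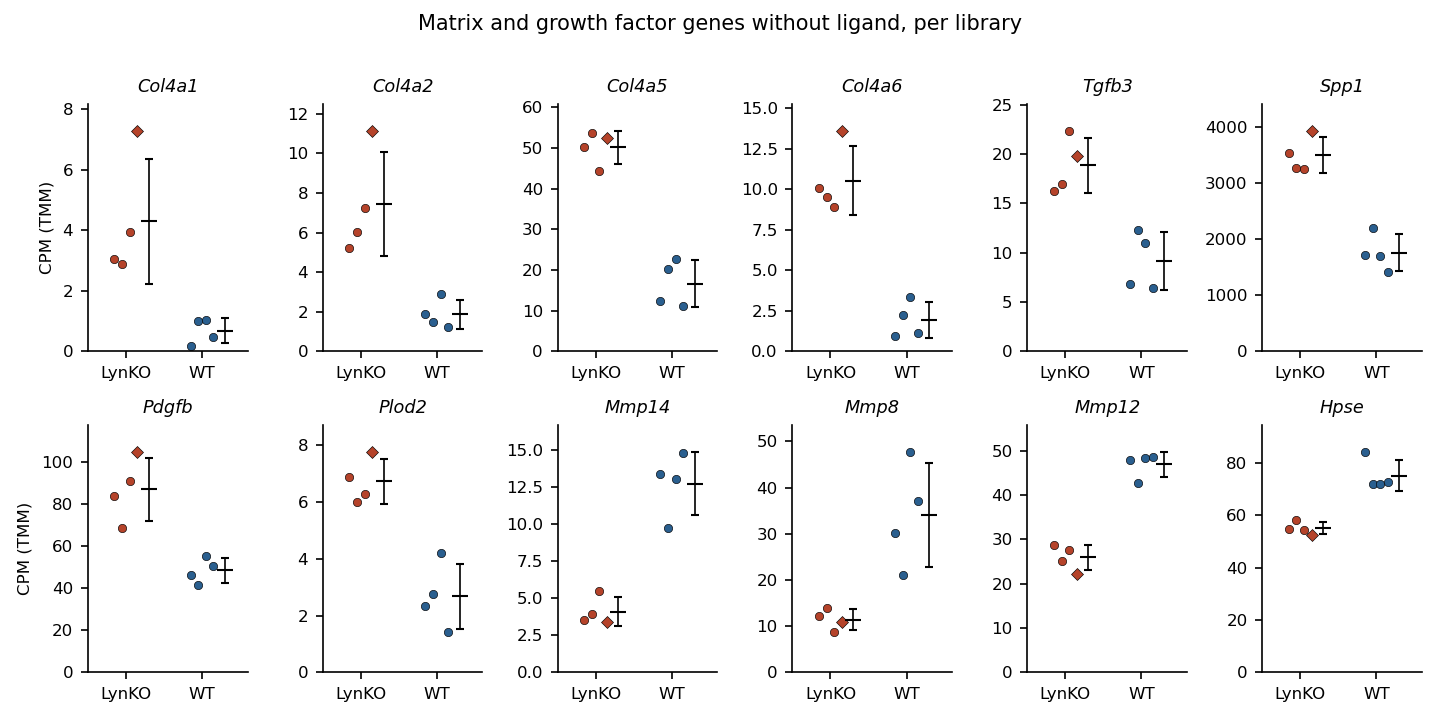
CPM of 12 matrix and growth factor genes in each library, LynKO left and WT right; bars are the mean and SD of 4 libraries and the diamond is the library labelled LynKO NT 4. The 4 type IV collagen genes lie higher in LynKO, with Col4a5 between 44.4 and 53.7 CPM in LynKO and between 11.2 and 22.7 CPM in WT, and the proteases Mmp14, Mmp8, Mmp12 and Hpse lie lower.

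Markers of mature macrophages had 12 of 36 lower and 4 higher, with a median of -0.165. Among the 4 higher was Folr2, whose values are given above with the scavenger genes. Its change was larger than any fall named in this paragraph. Lyz2, lysozyme M, had 18554, 18001, 17877 and 16217 CPM in LynKO libraries, against 35975, 28038, 28311 and 29749 CPM in WT libraries (log2 fold change -0.78 ± 0.08, adjusted p = 3.46e-06). Ms4a7, a tetraspanning protein of macrophages, had 128, 118, 127 and 134 CPM in LynKO libraries, against 228, 215, 185 and 225 CPM in WT libraries (log2 fold change -0.74 ± 0.08, adjusted p = 9.28e-06). The groups did not overlap. Ms4a4a, of the same gene family, fell by 1.15 ± 0.10 (adjusted p = 1.15e-06). Cd68 did not pass (log2 fold change -0.02 ± 0.07, adjusted p = 0.898), and neither did Adgre1 (log2 fold change 0.20 ± 0.08, adjusted p = 0.121). Maf, a transcription factor that restrains self-renewal of macrophages, had 184, 172, 173 and 172 CPM in LynKO libraries, against 243, 233, 212 and 215 CPM in WT libraries (log2 fold change -0.35 ± 0.06, adjusted p = 0.000532), and every LynKO library was below every WT library.

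Of 64 macrophage transcription factors, 8 rose and 8 fell (25.0% called, beside 9.9% of all genes tested). Cebpd had 25.00, 21.01, 20.3 and 18.5 CPM in LynKO libraries, against 56.3, 35.3, 38.97 and 46.4 CPM in WT libraries (log2 fold change -1.05 ± 0.15, adjusted p = 8.84e-05) and Cebpb fell by 0.56 ± 0.13; both encode C/EBP factors of inflammatory genes. Bhlhe41, a repressor of tissue macrophages, fell by 0.74 ± 0.12. The orphan nuclear receptors Nr4a1 and Nr4a2 rose by 0.70 ± 0.16 and 0.71 ± 0.13. Spi1 (PU.1) and Irf8, lineage factors, did not pass (log2 fold change -0.20 ± 0.07, adjusted p = 0.0891 for Spi1; log2 fold change -0.19 ± 0.07, adjusted p = 0.0827 for Irf8).

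Even without a ligand, NF-kB genes and targets were lower in LynKO, 16 of 39 against 1 higher, with a median of -0.294. Without the mixed libraries 14 fell. Sod2, a mitochondrial superoxide dismutase, had 74.2, 74.03, 79.9 and 78.5 CPM in LynKO libraries, against 149, 124, 141 and 148 CPM in WT libraries (log2 fold change -0.86 ± 0.08, adjusted p = 3.44e-06). Tnfaip2 had 167, 183, 204 and 165 CPM in LynKO libraries, against 319, 301, 346 and 348 CPM in WT libraries (log2 fold change -0.86 ± 0.09, adjusted p = 8.68e-06), and Nfkbia, the inhibitor I kappa B alpha, had 97.2, 90.03, 104 and 113 CPM in LynKO libraries, against 158, 131, 134 and 163 CPM in WT libraries (log2 fold change -0.52 ± 0.09, adjusted p = 0.00058). No LynKO library reached the lowest WT library in any of them. Zfp36, which destabilises cytokine mRNAs, was the member that rose, by 0.34 ± 0.08, and it lost its call without the mixed libraries (adjusted p = 0.0569). Chemokines had 4 of 22 lower and 1 higher (22.7%), and inflammatory cytokines 4 of 35 lower and 1 higher (14.3%), beside 9.9% of all genes tested. Cxcl2, a neutrophil chemoattractant, fell by 0.72 ± 0.16 and Il1rn, the IL-1 receptor antagonist, fell by 0.86 ± 0.18, whereas Cx3cl1 and Tnfsf14 rose by 0.88 ± 0.17 and 1.07 ± 0.20. The NF-kB consensus motif, searched on both strands, was present in 3 of 42 promoters of the list (7.1%) and in 1.6% of all. Its share was 1.2% for promoters of genes higher in LynKO and 2.2% for those of genes lower in LynKO, near the share of all. Of the genes that fell, Nfkbia had 1 match in its promoter, while Sod2, Tnfaip2 and Ier3 had 0.

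Interferon-stimulated genes had 3 of 81 higher and 5 lower, 9.9% called as over all genes, with a median of 0.062. Ifit1 and Isg15 did not pass (log2 fold change -0.12 ± 0.26, adjusted p = 0.837 for Ifit1; log2 fold change -0.19 ± 0.23, adjusted p = 0.677 for Isg15). Gbp2, a guanylate-binding protein, fell by 1.21 ± 0.26 and its paralog Gbp9 rose by 0.94 ± 0.19. The lower count was 2 without any of LynKO 1, 3 or 4 or WT 1 and 3 without WT 2 or WT 4. Alternative activation genes had 2 of 23 higher and 2 lower (17.4% called, beside 9.9% of all genes tested). Without LynKO 4 1 was higher, without WT 4 0, and 1 was lower without any of LynKO 1, LynKO 3 or WT 1. Antigen presentation genes had 2 of 35 higher and 2 lower, a share of 11.4% near that of all genes, and 5 were lower without WT 3. Cd74, the invariant chain of MHC class II, fell by 3.91 ± 0.86, with 50.95, 57.6, 63.3 and 42.2 CPM in LynKO libraries, against 2958, 114, 65.7 and 110.2 CPM in WT libraries. WT 1 stood apart from the other WT libraries in Cd74, without it the log2 fold change was -0.84 ± 0.25 (adjusted p = 0.0456), and the MHC class II gene H2-Ab1 did not pass (log2 fold change -0.33 ± 0.18, adjusted p = 0.298). WT 1 was the lowest library of H2-DMb1, at 0.744 CPM against 16.5 to 21.7 CPM in the other WT libraries, of H2-Aa, at 3.07 CPM against 8.595 to 12.5 CPM, and of H2-Eb1, at 4.14 CPM against 10.3 to 15.4 CPM, and none of these, chosen after their values were seen, passed. H2-Q6, a class I gene with near-identical paralogs whose reads are uncertain, rose by 2.22 ± 0.45 and had no count in WT 1.

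Of 18 complement genes 2 fell and 0 rose, 11.1% beside 9.9% of all genes, and 4 fell without WT 3. Cfp, properdin, had 125, 128, 134 and 106 CPM in LynKO libraries, against 289, 241, 174 and 240.0 CPM in WT libraries (log2 fold change -0.93 ± 0.13, adjusted p = 0.000105), and C3 had 81.3, 89.2, 87.8 and 65.8 CPM in LynKO libraries, against 182, 160.3, 127 and 145 CPM in WT libraries (log2 fold change -0.91 ± 0.14, adjusted p = 0.000256). Both were lower in all LynKO libraries, and C1qa did not pass (log2 fold change -0.47 ± 0.20, adjusted p = 0.16). Survival genes had 4 of 41 higher and 5 lower: Bcl2, which blocks apoptosis, rose by 1.34 ± 0.30 and the BH3-only gene Pmaip1 (Noxa) by 0.57 ± 0.10, while the caspase-restraining Birc3 fell by 0.57 ± 0.08 and the effector Bax fell by 0.38 ± 0.09.

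Among the genes with the largest changes outside the lists, Cpe, carboxypeptidase E, had 10.2, 7.88, 8.39 and 10.6 CPM in LynKO libraries, against 1.21, 3.08, 1.87 and 1.02 CPM in WT libraries (log2 fold change 2.38 ± 0.32, adjusted p = 7.43e-05). Slco2b1, an organic anion transporter, had 16.6, 11.9, 13.2 and 13.96 CPM in LynKO libraries, against 1.16, 3.61, 4.20 and 2.71 CPM in WT libraries (log2 fold change 2.25 ± 0.27, adjusted p = 1.95e-05), and Emp2, an epithelial membrane protein, had 48.9, 42.02, 47.9 and 49.5 CPM in LynKO libraries, against 15.8, 22.6, 25.3 and 20.1 CPM in WT libraries (log2 fold change 1.18 ± 0.13, adjusted p = 1.12e-05). LynKO was higher without overlap in each. Itpr3, a calcium channel of the endoplasmic reticulum, rose by 0.89 ± 0.09, and F10, coagulation factor X, fell by 1.67 ± 0.24.

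LynKO was next set against the knockouts of a single isoform, in the same model and with the same LynKO libraries. Against LynAKO 474 genes were called (3.39%), 286 higher (2.04%) and 188 lower (1.34%) in LynKO. Against LynBKO 499 were called (3.57%), 270 higher (1.93%) and 229 lower (1.64%). The second count rested on few libraries: it was 80 without the libraries labelled LynKO NT 4 and LynBKO NT 4, 171 without LynBKO 1, 184 without LynKO 4, 277 without LynBKO 4, 287 without LynBKO 3 and 320 without LynKO 3. Against LynAKO it was 256 without the mixed libraries, 300 without LynKO 1 and 303 without LynAKO 2.

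Lyn had 67.6 ± 4.15 CPM in LynKO, 118 ± 11.5 CPM in LynAKO, 125 ± 6.38 CPM in LynBKO and 177 ± 10.4 CPM in WT (SD, n = 4 each), lower in LynKO than in LynAKO (-0.79 ± 0.07, adjusted p = 6.84e-06) and than in LynBKO (-0.88 ± 0.07, adjusted p = 1.13e-06). Mitosis genes were higher in LynKO than in LynAKO for 55 of 82 members and lower for 0. Against LynBKO 25 were higher and 1 lower. For S phase genes, 23 of 63 were higher than in LynAKO and 22 than in LynBKO, and none was lower. Without the mixed libraries 42 mitosis and 12 S phase genes were higher than in LynAKO, and 5 and 4 than in LynBKO. Prc1 had 16.1 ± 1.36 CPM in LynKO, 8.12 ± 0.940 CPM in LynAKO, 10.2 ± 0.934 CPM in LynBKO and 6.54 ± 1.68 CPM in WT. LynKO was higher than LynAKO (1.00 ± 0.14, adjusted p = 0.00063) and than LynBKO (0.68 ± 0.14, adjusted p = 0.00983), and both single knockouts had means between those of LynKO and WT. Without the mixed libraries the difference from LynBKO lost its call (adjusted p = 0.0598). Slc40a1 had 20.1 ± 3.65 CPM in LynKO, 50.1 ± 7.27 CPM in LynAKO, 49.8 ± 9.71 CPM in LynBKO and 60.3 ± 7.56 CPM in WT. Its fall was seen against LynAKO (-1.31 ± 0.14, adjusted p = 3.55e-05) and against LynBKO (-1.29 ± 0.14, adjusted p = 4.62e-05), and both single knockouts had means nearer to that of WT than to that of LynKO.

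Col4a5 had 50.2 ± 4.09 CPM in LynKO, 20.9 ± 4.10 CPM in LynAKO, 21.5 ± 3.52 CPM in LynBKO and 16.6 ± 5.70 CPM in WT. LynKO was higher than LynAKO (1.27 ± 0.18, adjusted p = 0.000603) and than LynBKO (1.23 ± 0.18, adjusted p = 0.000826). For Col4a1 neither difference passed (1.17 ± 0.37, adjusted p = 0.0985 for LynAKO; 1.28 ± 0.38, adjusted p = 0.0672 for LynBKO). Mmp12 was lower in LynKO than in LynAKO (-0.69 ± 0.09, adjusted p = 0.000226) and LynBKO (-0.63 ± 0.09, adjusted p = 0.000826), as was Gas6 (-0.59 ± 0.07, adjusted p = 0.000132 and -0.42 ± 0.07, adjusted p = 0.00244). Fabp4 had 13.1 ± 1.83 CPM in LynKO, 18.8 ± 3.99 CPM in LynAKO, 12.4 ± 0.961 CPM in LynBKO and 24.2 ± 0.936 CPM in WT, so that LynKO was lower than LynAKO (-0.51 ± 0.13, adjusted p = 0.0324) but did not pass against LynBKO (0.09 ± 0.13, adjusted p = 0.854). Hspa5 passed against neither (-0.24 ± 0.09, adjusted p = 0.158 for LynAKO; -0.26 ± 0.09, adjusted p = 0.114 for LynBKO), and of the 49 stress response genes 3 fell against LynAKO and 2 against LynBKO, or 1 and 0 without the mixed libraries.

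The number of genes whose difference between LynKO and WT changed size with a ligand depended on the model. Without the mouse as a block, few genes passed. The effect with LPS minus that without ligand passed for 14 genes (0.1%), with 7 positive and 7 negative differences (0.0501% each). With R848 in its place it passed for 27 (0.193%), 12 positive (0.0858%) and 15 negative (0.107%). Cells of the same mouse share a replicate number, and with the mouse as a block 121 and 173 genes passed. The values below are from the model without that block. For LPS the count was 2 without LynKO 1, 7 without WT 4 and 9 without LynKO 3. For R848 it was 6 without LynKO 4, 7 without WT 1, 12 without LynKO 1 and 14 without LynKO 2. Tlr2 was lower in LynKO without ligand and differed by -0.18 with LPS, a difference of effects of 0.62 ± 0.11, adjusted p = 0.00426. Acod1 had 16.4 ± 0.866 CPM in LynKO and 57.9 ± 12.03 CPM in WT without ligand, and 6611 ± 1126 CPM in LynKO and 8403 ± 586 CPM in WT with LPS (SD, n = 4 each). The difference of its effects was 1.47 ± 0.24, adjusted p = 0.00426 for LPS and 1.35 ± 0.24, adjusted p = 0.00489 for R848. Fas and Mmp14 behaved alike, with differences of 0.84 ± 0.15, adjusted p = 0.00593 and 1.13 ± 0.22, adjusted p = 0.0153 for LPS. Spred2 and Bcl2 passed in the other direction for R848 (-1.01 ± 0.22, adjusted p = 0.0299 for Spred2; -1.50 ± 0.32, adjusted p = 0.0178 for Bcl2). Of the differences named, those of Acod1 passed whichever LynKO or WT mouse was left out, and the others lost their calls without at least 1. For Slc40a1, Clec4n and Col4a5, whose effects were not called different, the log2 fold changes with LPS were -1.68, -1.68 and 1.81, beside -1.57, -1.93 and 1.61 without ligand.

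No gene passed the test of a difference of the LynKO effect between male and female mice in edgeR, and 8 passed with DESeq2. In edgeR 753 of 13986 genes tested had an unadjusted p under 0.05. Each genotype and sex had 2 libraries, and those of LynKO labelled female include LynKO NT 4, a mixed library. So few libraries cannot show that the effect is alike in both sexes. With 1 library left out in edgeR, 14 passed without WT 2, 7 without LynKO 3, 3 without WT 1 and 1 without WT 4.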

How the data were processed

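PolyA RNA of 48 macrophage cultures was sequenced. The authors deposited raw read counts per gene. Per the submitters' processing notes, reads were handled with Subread 1.5.2 (featureCounts), Trimmomatic 0.36, DESeq2 and STAR 2.5.2b, listed there without an order, and build GRCm38. The sources used here do not name the annotation release or the strand setting. Genes were filtered at 10 counts (filterByExpr, minimum total 15) over the 12 groups of all 48 libraries, ligand groups included. From the deposited counts of these genes, the 16 NT libraries were fitted together in edgeR 4.0.16 (R 4.3.3) with TMM scaling, glmQLFit and glmQLFTest. The fit had 12 residual degrees of freedom, and the threshold was a Benjamini-Hochberg adjusted p under 0.05. The ligand differences came from 1 model of 48 libraries without the mouse as a block. The scripts were tested on simulated data. Alternatives were DESeq2 1.42.0, RLE scaling, no filter, all 48 libraries, the 8 LynKO and WT libraries, sex, replicate block, thinning to 15582936 counts (chosen after seeing the data), single sexes and libraries left out.

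The libraries labelled LynKO and WT are separate mice, per the labels. Their replicate numbers were not used as pairs in the main fit. The correlation of deviations from the group means was 0.135, 0.05, 0.191 and 0.149 between libraries of numbers 1 to 4. Between libraries of different numbers it was -0.153 to 0.116, so that all pairs but pair 2 were above that range. Whether libraries of the same number share a batch was not tested. With the replicate number as a block 1349 genes were called. In the ligand comparisons a number marks the same mouse. The members and gene lists were chosen with earlier results of these data known. Named genes are Lyn, anchor genes of each list, up to 6 called members each way of each list with the smallest p, up to 15 each way with the largest change without overlap and a mean of at least 5 CPM in the higher group, up to 10 each way with the smallest p, and up to 10 of each other comparison. Some named genes are not reported here.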

Additional observations from a re-analysis of the deposited data

Results flagged for a closer look

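Of 464 gene and group combinations, 25 had 1 library far from the other 3 of its group by Dixon's ratio, and chance alone gives about 1 in 20. Among LynKO libraries the high ones were C1qa at 281.7 CPM, Cd300lf at 70.35 CPM, Clcn7 at 139 CPM, Fabp5 at 199 CPM, Il13ra1 at 5.181 CPM, Itgav at 328.3 CPM, Maf at 184.2 CPM and Spred2 at 17.52 CPM. The low ones were Arg2 at 2.415 CPM, Birc3 at 56.85 CPM and Nqo1 at 2.947 CPM. Among WT libraries the high ones were Cd74 at 2958 CPM, Col18a1 at 66.28 CPM, Fbxo5 at 5.443 CPM, Fpr1 at 4.131 CPM, Hpse at 84.24 CPM, Irf8 at 281.2 CPM, Itga6 at 239.9 CPM, Itgav at 192 CPM, Sdc1 at 177.6 CPM, Tgfbi at 701.7 CPM and Unc93b1 at 908.5 CPM. The low ones were Clec4a1 at 73.54 CPM, Fpr2 at 2.271 CPM and Mmp12 at 42.7 CPM.

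The effect of LynKO differed with a ligand from that without one for 8 of the named genes, by the interaction test without the mouse as a block. With LPS the difference of log2 effects was 1.47 for Acod1, 0.84 for Fas, 1.13 for Mmp14 and 0.62 for Tlr2. With R848 it was 1.35 for Acod1, 0.74 for Fas, 1.25 for Mmp14, 0.55 for Tlr2, 0.94 for Ier3, 0.58 for Sod2, -1.01 for Spred2 and -1.50 for Bcl2.

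The library labelled LynKO NT 4, whose label is female, held 70.76 CPM of Y-linked transcripts, while the other LynKO library labelled female and both WT libraries labelled female held none.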

How the results depend on the processing

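The count of genes called between LynKO and WT was 1385, 637 in the male and 423 in the female libraries alone, 962 to 1444 with 1 library left out, 1349 with the replicate block, 967 without the mixed libraries, and 1116 to 1731 under the other alternatives. Against LynAKO (474) it was 752 with DESeq2, 833 without the filter, 256 without the mixed libraries and 300 to 550 with 1 library left out. Against LynBKO (499) it was 806, 889, 80 and 171 to 443. For the LPS difference (14) it was 64 with DESeq2, 125 without the filter, 121 with the mouse as a replicate block and 2 to 15 with 1 replicate left out. For the R848 difference (27) it was 78, 148, 173 and 6 to 26. For the sex difference (0) it was 8 with DESeq2, 63 without the filter and 0 to 14 with 1 library left out.

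Of 232 named genes 189 were called. Of those called, none changed sign under an alternative and 95 kept the call under all. Some genes that were not called changed sign, such as Abca1 with 0.02 in the main fit and -0.02 in the female libraries alone. Among settings that leave out 1 library, without WT 1 Fcer1g and Tgfb1 were lost (adjusted p = 0.0572 and 0.0584), without WT 4 Hcls1 (0.0669), without LynKO 4 Clec7a and Nr1h3 (0.0562 and 0.052), without WT 3 Nr1h3 (0.0511), without LynKO 4 or WT 1 Tlr7 (0.0739 and 0.0635), without LynKO 4, WT 1 or WT 4 Plau (0.0706 to 0.0776), and without any of 5 to 7 of the 8 libraries Cdc6, Clcn7, Csf1r, Fgr, Flt1, Ly6c2 and Runx2. Low counts limit the fold changes of genes such as Fpr1 and Col4a1. The cause of these shifts was not tested.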

Other observations

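Within 5 Mb of Lyn on chromosome 4, 2 of 17 tested genes were called (11.8%), within 10 Mb 5 of 39 (12.8%) and within 20 Mb 6 of 61 (9.8%), beside 9.9% of all genes. The share called ranged over 7.5 to 11.9% by autosome and X chromosome, and was 0 of 7 genes on Y.

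Of 77 cytosolic ribosomal protein genes 3 were lower and 0 higher in LynKO, with a median log2 fold change of -0.153. Of 28 mitochondrially encoded genes 1 was higher and 1 lower.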
